A study of Mus musculus with 10 samples.

Results

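The 10 genes described here encode transcription factors that set motor neuron identity and column in the embryo: the LIM-homeodomain factors Isl1, Isl2, Lhx1, Lhx3 and Lhx4, the homeodomain factors Mnx1 and Nkx6-1, the forkhead factor Foxp1, the POU factor Pou3f1 and the runt factor Runx1. They were taken by symbol, and all 10 of 10 were found among the 51912 genes of the count files. The study captured lumbar spinal motor neurons by laser from frozen sections of 12 µm, as 1 pool of about 50 cells per mouse, and made 1 Smart-seq2 library of polyadenylated RNA from each pool. The groups were 5 HSA-NRTN transgenic mice, in which the promoter of human skeletal actin drives the ligand neurturin in muscle fibres, and 5 littermates labelled wild-type. Each group held 3 females and 2 males, and no other allele or agent is named. The age of the mice is not given in the sources used here, and the transgene acts outside the captured cells. Only cells with a visible nucleolus and an area above 200 µm2 were taken, which leaves the smallest motor neurons out.

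In the developing cord, Nkx6-1 acts in dividing progenitors, and Mnx1, Isl1, Isl2, Lhx3 and Lhx4 come on as motor neurons are born. Lhx3 and Lhx4 then stay on mainly in the medial column that serves axial muscle, Foxp1 marks the lateral column that serves limb muscle, and Lhx1 marks the lateral division of that column while Isl1 marks its medial division. Pou3f1 and Runx1 are expressed by subsets of motor pools. LIM-homeodomain factors work as complexes held together by LIM-domain binding proteins, and the complex of Isl1 with Lhx3 switches on cholinergic genes.

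The LIM factors come as paralogs, and the sequences below are shown because counts of a gene and its paralog are compared in what follows. In the longest coding sequences of GENCODE M21, Isl1 (1047 bases) and Isl2 (1077 bases) were identical at 73.3% of 1036 aligned bases, and their longest identical stretch was 23 bases. Lhx3 (1206 bases) and Lhx4 (1170 bases) were identical at 71.4% of 1144 aligned bases, with a longest identical stretch of 20 bases. The windows of 60 bases around those stretches overlap the homeobox, which encodes the DNA-binding domain, and lie in exon 4 of each transcript. They run 5′ to 3′ along the transcript on GRCm38, with bases identical between the paralogs in capitals and differing bases in lower case.
Isl1, chr13:116303217-116303276, minus strand: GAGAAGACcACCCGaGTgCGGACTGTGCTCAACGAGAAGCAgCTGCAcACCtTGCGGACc
Isl2, chr9:55544129-55544188, plus strand: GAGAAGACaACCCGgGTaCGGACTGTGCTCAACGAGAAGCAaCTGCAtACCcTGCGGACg
Lhx3, chr2:26202355-26202414, minus strand: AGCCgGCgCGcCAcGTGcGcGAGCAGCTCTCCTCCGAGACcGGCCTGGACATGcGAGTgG
Lhx4, chr1:155705177-155705236, minus strand: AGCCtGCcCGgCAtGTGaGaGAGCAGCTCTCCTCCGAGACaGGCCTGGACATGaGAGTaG
Of these 60 bases, 53 were identical between Isl1 and Isl2 and 51 between Lhx3 and Lhx4. Around their longest identical stretches the paralogs differed at several scattered bases. The read length is not given in the sources used here.

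Gene counts per library ran from 1875971 to 6641695, lowest in HSA-NRTN replicate 2, and 14090 to 19675 genes had at least 1 count. The markers of the labelled cell type were present: the summed level of 5 motor neuron genes (Chat, Slc18a3, Slc5a7, Prph and Nefh) was 5457 to 8318 CPM (a gene's count scaled to a common library size) across HSA-NRTN libraries and 6457 to 8284 CPM across wild-type libraries, and each of the 5 was detected in both groups. Markers of other cells were lower. The 3 Schwann cell markers had the highest median sums of these, with a range of 978 to 1713 CPM in HSA-NRTN and 816 to 1527 CPM in wild-type libraries, although 8 of 10 libraries had counts of only 1 of the 3. The 4 fibroblast markers summed to 0.986 to 56.9 and 11.02 to 352 CPM, with 296 and 352 CPM in wild-type replicates 2 and 4. The 5 oligodendrocyte markers summed to a median of 340 CPM in HSA-NRTN libraries, with the highest value, 1382 CPM, in replicate 2, and ranged from 193 to 598 CPM in wild-type libraries. The 4 inhibitory neuron markers summed to 11.1 to 160 and 0.688 to 172 CPM, and the 5 microglia markers to 1.19 to 8.11 and 2.18 to 12.2 CPM, with Tmem119 at 0 in all wild-type libraries. Levels below are CPM with library sizes scaled by TMM, a factor that sets the bulk of genes level between libraries, and 1 count was worth 0.143 to 0.540 CPM depending on the library. These are pools, so fewer cells with a transcript and less transcript per cell cannot be told apart.

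Per length of merged exons, the 10 factors fell into an upper 5 and a lower 5 in wild-type libraries. Mnx1 stood at 7.51 ± 3.27, Isl2 at 7.12 ± 2.57, Isl1 at 6.95 ± 3.51, Lhx4 at 5.65 ± 0.855 and Foxp1 at 3.18 ± 1.55 CPM per kb (SD, n = 5 each). The lower 5 were Lhx3 at 0.829 ± 0.789, Runx1 at 0.246 ± 0.288, Lhx1 at 0.113 ± 0.155, Pou3f1 at 0.0294 ± 0.0658 and Nkx6-1 at 0.0180 ± 0.0404 CPM per kb. Among the 26007 genes with a length and at least 1 count, these wild-type levels were at the 81.6th percentile for Mnx1, the 52.2nd for Lhx3 and the 18.8th for Nkx6-1. Merged exons span all annotated transcripts, 13751 bases for Foxp1 and 2193 for Isl2, so the order within the upper 5 depends on this length. Undivided by length, wild-type means were 43.7 CPM for Foxp1, 32.4 for Lhx4, 27.5 for Isl1, 16.9 for Mnx1 and 15.6 for Isl2.

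Neighbours in the order per length were mostly not separated by their spread. Mnx1 exceeded Isl2 in 3 of 5 wild-type libraries, Isl2 exceeded Isl1 in 2 of 5, and Isl1 exceeded Lhx4 in 3 of 5. Lhx4 exceeded Foxp1 and Foxp1 exceeded Lhx3 in 5 of 5 wild-type libraries, although each of these 2 pairs of ranges overlapped. Over the wild-type libraries, Lhx3 had 54 counts and Runx1 67, while Lhx1 had 9, Pou3f1 2 and Nkx6-1 1, so the order of the last 3 rests on a handful of counts. In HSA-NRTN libraries Mnx1 exceeded Isl2 in 1 of 5, Isl2 exceeded Isl1 in 1 of 5, Isl1 exceeded Lhx4 in 5 of 5, Lhx4 exceeded Foxp1 in 3 of 5 and Foxp1 exceeded Lhx3 in 5 of 5.

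**Figure D1:**
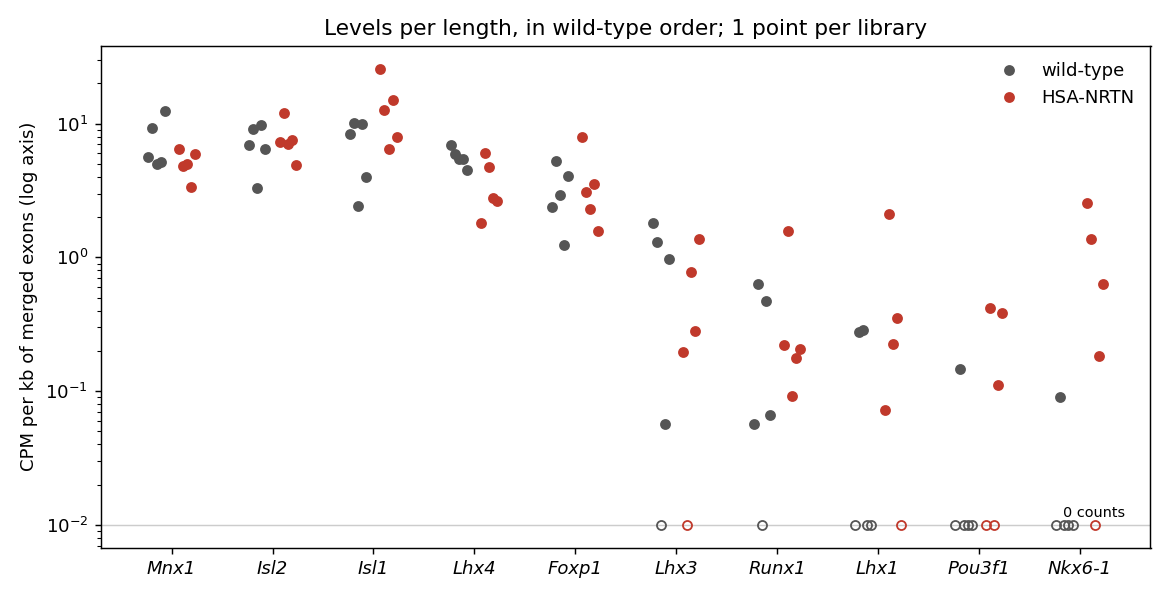
Level of each factor per kb of merged exons (log axis), with 1 point per library, wild-type in grey and HSA-NRTN in red, ordered by the wild-type mean. Open circles on the grey line are libraries with 0 counts. Mnx1, Isl2, Isl1, Lhx4 and Foxp1 have counts in all 10 libraries, while Lhx3, Runx1, Lhx1, Pou3f1 and Nkx6-1 are at 0 in at least 1.

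The genotype comparison asks how neurturin from muscle, the theme of the series' title, bears on motor neuron identity. None of the 10 factors passed. The low-count filter kept 7, and 0 of these 7 had an adjusted p under 0.05 in edgeR's quasi-likelihood test, while 1 of 11630 genes tested did (0.0086%), the phosphatase gene Ptpro. At an unadjusted p under 0.05 the count was also 0 of 7, beside 562 of 11630 genes (4.83%). The library ranges of the 2 genotypes overlapped for all 7, while they did not overlap for 145 of 11630 genes (1.25%). The log2 fold change was above 0 for 4 of the 7 and below 0 for 3, and its median was 0.12. Over all genes tested it was above 0 for 5648 and below 0 for 5982, and its median was -0.01. Adjusted p was 0.999 for each of the 7. In simulated counts with 200 changed genes, this fit made 83 calls and recovered 11.5% of 2-fold changes. Those counts held more changed genes than were called here and used a spread fitted across genes. The share is therefore not the power for these factors, and a factor that was not called may still differ. The alternatives called 0 factors as well. An unadjusted p under 0.05 was given to 2 of 10 factors and 1319 of 25296 genes by DESeq2, to 1 of 7 factors and 670 of 11630 genes by limma voom, and to 2 of 10 factors and 3337 of 26070 genes by edgeR with no filter beyond 1 count.

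**Figure D2:**
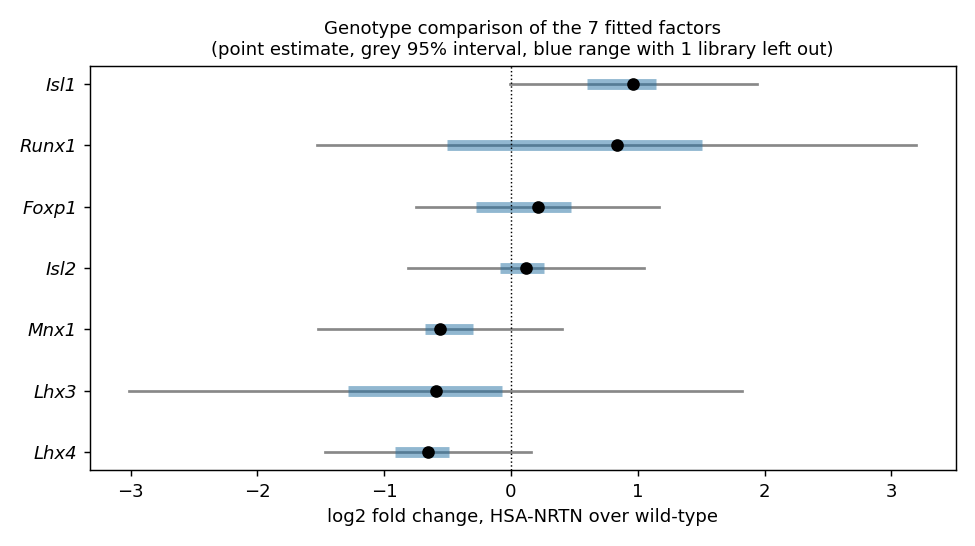
Log2 fold change of HSA-NRTN over wild-type for the 7 factors that passed the low-count filter. Points are the estimates from all 10 libraries, grey lines the 95% intervals and blue bars the range of estimates with 1 library left out. All 7 intervals include 0, from Isl1 at 0.97 down to Lhx4 at -0.66.

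Isl1 and Isl2 are the LIM-homeodomain factors common to spinal motor neurons. Isl1 (ENSMUSG00000042258, chromosome 13 of GRCm38, 116298281 to 116309689, minus strand) was at 102, 50.3, 25.6, 59.6 and 31.3 CPM in HSA-NRTN replicates 1 to 5 and at 33.0, 39.9, 9.62, 39.1 and 15.9 CPM in wild-type replicates 1 to 5. HSA-NRTN replicates 1, 2 and 4 lay above all wild-type libraries, and the other 2 lay within their range. The means were 53.8 ± 30.3 against 27.5 ± 13.9 CPM (SD, n = 5 each), and the log2 fold change of 0.97 (SE 0.46, 95% interval -0.01 to 1.94) did not pass. Unadjusted, its p was 0.0516 in edgeR, the lowest of the 7, and 0.0575 in limma voom. It was 0.0468 in DESeq2 (adjusted p 0.588) and 0.0266 in edgeR with no filter beyond 1 count (adjusted p 0.347). Without HSA-NRTN replicate 1, the library with the highest level, the log2 fold change was 0.60.

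Isl2 (ENSMUSG00000032318, chromosome 9, 55538672 to 55546180, plus strand) was at 16.0, 26.5, 15.4, 16.7 and 10.8 CPM in HSA-NRTN replicates 1 to 5 and at 15.1, 20.1, 7.27, 21.5 and 14.1 CPM in wild-type replicates 1 to 5. The groups overlapped almost entirely, with only HSA-NRTN replicate 2 above all wild-type libraries. The means were 17.1 ± 5.73 and 15.6 ± 5.64 CPM (SD, n = 5 each), with a log2 fold change of 0.12 (SE 0.44, 95% interval -0.81 to 1.05). Its sign turned without HSA-NRTN replicate 2, to -0.09, and without wild-type replicate 3, to -0.07.

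The balance between the 2 paralogs, each per length, had an SD of 1.05 among HSA-NRTN and of 0.247 among wild-type pools. The ratio of Isl1 to Isl2 was 1.21, 1.10, 0.733, 1.01 and 0.624 in wild-type replicates 1 to 5. In HSA-NRTN replicates 1 to 5 it was 3.53, 1.05, 0.923, 1.98 and 1.60. HSA-NRTN replicates 1, 4 and 5 lay above all wild-type libraries, and replicates 2 and 3 lay within their range. No test was made of this ratio.

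The stretches of 250 bases before the RefSeq start sites of Isl1 and Isl2 (GRCm38.p6) are printed because the upstream regions of both paralogs held the same short motifs. Both strands were searched for CCAAT, the letters of the CCAAT box, for TGACGT, the core of the cyclic AMP response element, for TAATTA, a homeodomain core, and for TATAAA, the TATA box. Matches are in capitals, and the sequences run 5′ to 3′ toward the start site.
Isl1, chr13:116309689-116309938, minus strand: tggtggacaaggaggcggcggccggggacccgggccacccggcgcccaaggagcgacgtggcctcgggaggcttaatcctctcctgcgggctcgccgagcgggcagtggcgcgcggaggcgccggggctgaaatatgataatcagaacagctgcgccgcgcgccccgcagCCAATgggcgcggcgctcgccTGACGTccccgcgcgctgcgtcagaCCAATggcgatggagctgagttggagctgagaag
Isl2, chr9:55540899-55541148, plus strand: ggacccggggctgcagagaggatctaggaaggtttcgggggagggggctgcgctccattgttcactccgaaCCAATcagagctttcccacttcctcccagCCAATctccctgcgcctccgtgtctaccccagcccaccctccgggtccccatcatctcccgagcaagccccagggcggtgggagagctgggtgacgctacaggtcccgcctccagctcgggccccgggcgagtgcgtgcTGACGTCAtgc
Isl1 held 2 matches of CCAAT and 1 of TGACGT, and Isl2 held 2 of CCAAT and 2 of TGACGT, the latter overlapping on opposite strands. Neither held TAATTA or TATAAA. Over all 32851 upstream regions of this length in the table, 33.8% held CCAAT and 6.47% held TGACGT. The table held 9 of the 10 factors, with 13 start sites, of which 7 held CCAAT and 5 held TGACGT. The GC content of these 13 regions ran from 45.2% to 74%. The full set was not matched to them in base content, and no test was made of these shares. These matches describe letters only, and the motifs were chosen after the sequences were seen.

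Mnx1, a homeodomain factor that secures motor neuron over interneuron identity, is known also as Hb9. Mnx1 (ENSMUSG00000001566, chromosome 5, 29473034 to 29478470, minus strand) was at 14.5, 10.8, 11.2, 7.55 and 13.3 CPM in HSA-NRTN replicates 1 to 5 and at 12.6, 20.96, 11.3, 11.7 and 28.0 CPM in wild-type replicates 1 to 5. Wild-type replicates 2 and 5, the 2 wild-type males, lay above every other library, and HSA-NRTN replicates 2, 3 and 4 lay under every wild-type value. The log2 fold change was -0.56 (SE 0.45, 95% interval -1.52 to 0.40) and ranged from -0.68 to -0.30 with 1 library left out. In females alone it was -0.13 and in males alone -0.95, a difference that did not pass as a genotype by sex interaction (edgeR, adjusted p = 0.954). Animal numbers in the labels fall into 2 runs, with the HSA-NRTN males in the lower and the wild-type males in the upper. Among males, genotype and run therefore cannot be told apart.

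Lhx4 and its paralog Lhx3 act early in all ventrally projecting motor neurons and later in the medial column. Lhx4 (ENSMUSG00000026468, chromosome 1, 155698031 to 155751684, minus strand) was at 10.4, 34.6, 27.3, 16.0 and 15.04 CPM in HSA-NRTN replicates 1 to 5 and at 39.5, 34.0, 31.4, 31.2 and 26.0 CPM in wild-type replicates 1 to 5. HSA-NRTN replicates 1, 4 and 5 lay below all wild-type libraries, and replicates 2 and 3 lay among them. The means were 20.7 ± 9.97 against 32.4 ± 4.91 CPM (SD, n = 5 each), and the SD was 48.3% of the mean in HSA-NRTN and 15.1% in wild-type pools. The log2 fold change of -0.66 (SE 0.38, 95% interval -1.47 to 0.15) did not pass. Unadjusted, its p was 0.105 in edgeR and 0.0365 in limma voom, and its log2 fold change ranged from -0.91 to -0.49 with 1 library left out.

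Lhx3 (ENSMUSG00000026934, chromosome 2, 26200212 to 26208289, minus strand) was far lower than Lhx4 and uneven within both groups. It had 2, 0, 13, 6 and 17 counts in HSA-NRTN replicates 1 to 5 and 24, 14, 0, 1 and 15 counts in wild-type replicates 1 to 5. Libraries with 0 or 1 count stood beside libraries with 13 or more in each genotype. The log2 fold change of -0.60 had an SE of 1.14 and a 95% interval from -3.01 to 1.82, and it was 0.24 in limma voom and 0.41 in females alone. An antisense gene, Gm27196, shares 188 exon bases with Lhx3 and had 1 count over all libraries.

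Foxp1, the forkhead factor of the limb-innervating lateral column and a cofactor of Hox proteins, was detected in every pool. Foxp1 (ENSMUSG00000030067, chromosome 6, 98925338 to 99522721, minus strand) was at 109, 42.2, 31.9, 48.3 and 21.7 CPM in HSA-NRTN replicates 1 to 5 and at 32.6, 72.2, 40.6, 17.0 and 56.3 CPM in wild-type replicates 1 to 5. HSA-NRTN replicate 1 was the highest of all libraries and wild-type replicate 4 the lowest, and the rest overlapped. The log2 fold change was 0.21 (SE 0.45, 95% interval -0.75 to 1.17), and it turned to -0.28 without HSA-NRTN replicate 1.

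Lhx1, the LIM-homeodomain factor of the lateral division of the lateral column and also of several interneuron classes, did not pass the low-count filter. Lhx1 (ENSMUSG00000018698, chromosome 11, 84518284 to 84525535, minus strand) had 1, 16, 5, 10 and 0 counts in HSA-NRTN replicates 1 to 5 and 0, 4, 5, 0 and 0 counts in wild-type replicates 1 to 5. HSA-NRTN replicate 2, the library with the lowest total of gene counts, held 16 of the 32 HSA-NRTN counts. It was at 8.65 CPM, while no other library exceeded 1.43 CPM. In that library 13.5% of reads were counted to genes. The groups differed by 0.97 in mean log2(CPM + 0.5), with p = 0.294 in an exact two-sided permutation test, and by 0.34 without HSA-NRTN replicate 2. That replicate also had the second highest sum of inhibitory neuron markers, 160 CPM, below the 172 CPM of wild-type replicate 1, where Lhx1 was at 0. The part of those cells in the Lhx1 counts was not tested.

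Runx1, a runt factor of cervical motor pools that is also a gene of microglia and blood cells, was low in most pools. Runx1 (ENSMUSG00000022952, chromosome 16, 92601466 to 92826149, minus strand) was at 2.67, 18.9, 1.10, 2.14 and 2.47 CPM in HSA-NRTN replicates 1 to 5 and at 0.689, 7.65, 0, 5.68 and 0.793 CPM in wild-type replicates 1 to 5. HSA-NRTN replicate 2 stood above all others with 35 counts. The log2 fold change was 0.83 (SE 1.11, 95% interval -1.53 to 3.20), and without that library it turned to -0.50. In HSA-NRTN replicate 2 the 5 microglia markers summed to 8.11 CPM, within the wild-type range, and the 5 blood markers to 43.2 CPM. HSA-NRTN replicate 3 was close to it in blood markers, at 42.1 CPM, with Runx1 at 1.10 CPM. The part of these cells in the Runx1 counts was not tested.

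Pou3f1, the POU factor also called SCIP or Oct6, had almost no counts. Pou3f1 (ENSMUSG00000090125, chromosome 4, 124656807 to 124660655, plus strand) had 0, 3, 0, 3 and 6 counts in HSA-NRTN replicates 1 to 5 and 2 counts in wild-type replicate 2 alone among the wild-type libraries. The ratio of pooled counts, scaled by library size, was 6.34, with an exact 95% counting interval from 1.41 to 58.4, but the exact two-sided permutation test over libraries gave p = 0.286 for a difference of 0.77 in mean log2(CPM + 0.5). In the 6 libraries at 0, that count allows a level of up to 0.516 to 0.890 CPM, which is 3 counts, so low expression was not detectable at this depth. These limits and the counting intervals leave out all but counting error, because PCR copies are not independent molecules.

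Nkx6-1, the progenitor homeodomain factor that some motor pools keep after birth, had the highest ratio of pooled counts between the genotypes among the 10 factors, on few counts. Nkx6-1 (ENSMUSG00000035187, chromosome 5, 101658139 to 101664996, minus strand) had 27, 8, 0, 4 and 8 counts in HSA-NRTN replicates 1 to 5, or 8.01, 4.32, 0, 0.570 and 1.97 CPM. Among the wild-type libraries it had 1 count in replicate 2, or 0.283 CPM, and 0 in the other 4. All HSA-NRTN libraries but replicate 3, which was at 0, lay above every wild-type value. Pooled over libraries there were 47 counts against 1, a ratio of 49.7 once scaled by library size, with an exact 95% counting interval from 8.50 to 2004.

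The difference of 2.02 in mean log2(CPM + 0.5) had p = 0.0476 in an exact two-sided permutation test of this gene alone, where the smallest possible p is 0.00794. Over all genes Nkx6-1 did not pass, with an adjusted p of 0.0899 in DESeq2 and of 0.305 in edgeR on all genes with a count. In the authors' deposited table its adjusted p was 0.196, the lowest of the 9 factors that had one there. HSA-NRTN replicates 1 and 2, the 2 HSA-NRTN males, held 35 of the 47 counts. Without both, a setting chosen after seeing the data, the difference was 1.01 and p = 0.107 in the exact permutation test, where the smallest possible p is 0.0179. Those 2 mice belong to the lower of 2 runs of animal numbers in the labels, in which the third HSA-NRTN library and the single wild-type library had 0 counts. In the upper run, the 2 HSA-NRTN libraries had 4 and 8 counts and the 4 wild-type libraries 1 in all.

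**Figure D3:**
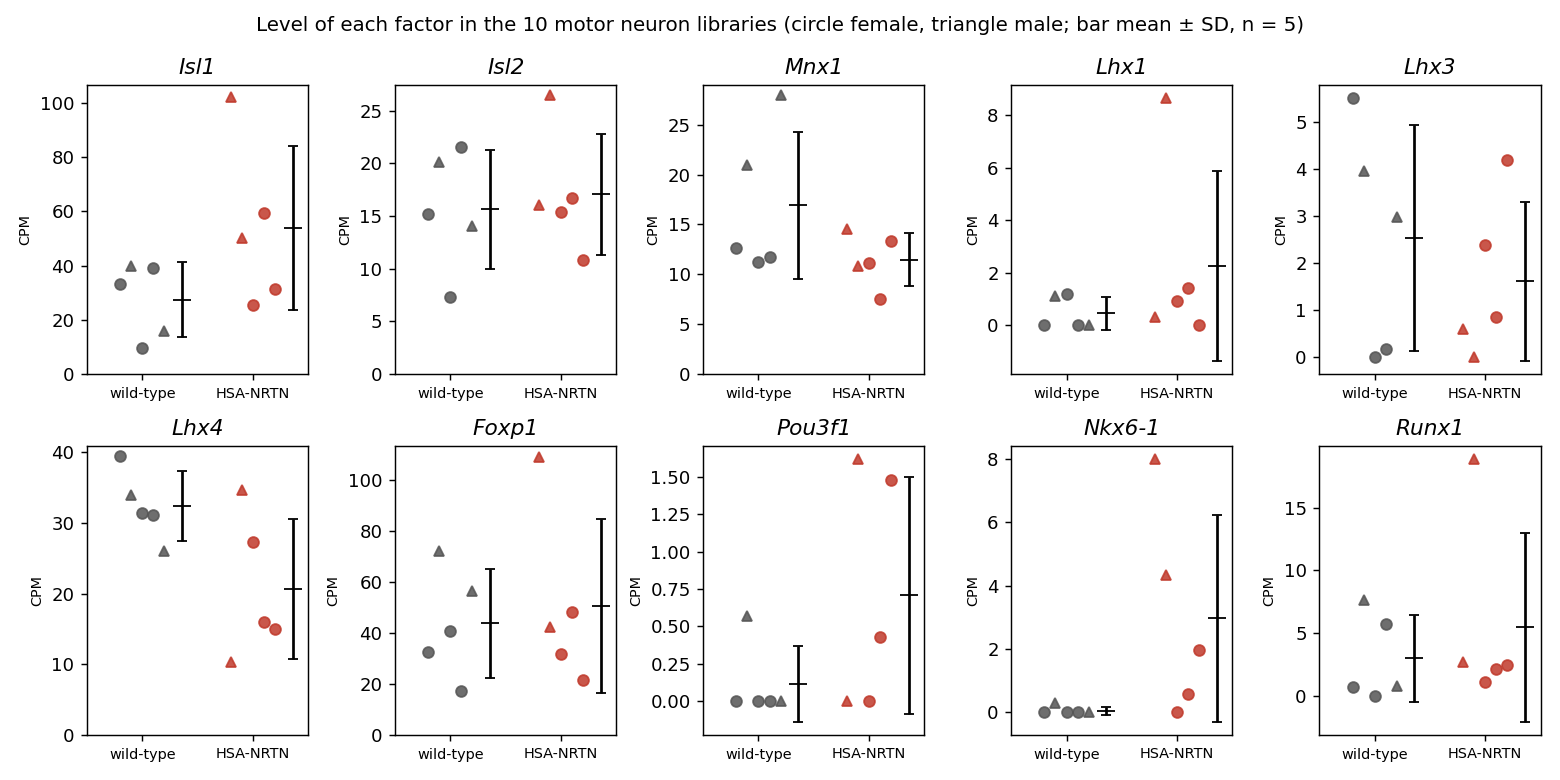
CPM of each of the 10 factors in every library, wild-type in grey and HSA-NRTN in red, circles for females and triangles for males, with the mean and SD of 5 libraries beside each group. The vertical scale differs between panels. The genotypes overlap in every panel, and HSA-NRTN replicate 2 stands high for Lhx1 and Runx1, at 8.65 and 18.9 CPM.

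In the authors' deposited table, made with DESeq2 per the submitters' processing notes, the log2 fold change was 0.68 for Isl1, 0.08 for Isl2, -0.39 for Mnx1, -0.54 for Lhx4, -0.18 for Lhx3, 0.17 for Foxp1, 0.25 for Runx1, 0.35 for Lhx1, 0.17 for Pou3f1 and 0.77 for Nkx6-1. These are moderated by their values: DESeq2 run here without moderation gave 5.60 for Nkx6-1. Each of the 10 had the same sign as the difference given above. Adjusted p in the authors' deposited table was 0.630 for Isl1, 0.737 for Lhx4 and at least 0.897 for the other factors except Nkx6-1, and Pou3f1 had none.

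Between sexes no factor passed either. With genotype in the model, 0 of 7 factors and 1 of 11630 genes (0.0086%), the X-inactivation gene Xist, had an adjusted p under 0.05, and 1 of 7 factors beside 1302 of 11630 genes (11.2%) had an unadjusted p under 0.05. The factor was Foxp1, at 69.9 ± 28.7 CPM in males (SD, n = 4) and 32.0 ± 11.6 CPM in females (SD, n = 6). The lowest male was HSA-NRTN replicate 2 at 42.2 CPM and the highest female HSA-NRTN replicate 4 at 48.3 CPM, so the sexes overlapped by these 2 libraries. The log2 difference of males over females was 1.13 (SE 0.36, 95% interval 0.36 to 1.89; edgeR adjusted p = 0.370), and 0.79 without HSA-NRTN replicate 1, where the unadjusted p was 0.0717 in edgeR.

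For the genotype by sex interaction, 0 of 7 factors and 0 of 11630 genes (0%) had an adjusted p under 0.05 in edgeR, while 0 of 7 and 598 of 11630 (5.14%) had an unadjusted p under 0.05. DESeq2 called 16 genes and edgeR with no filter beyond 1 count 35, with no factor among them. Isl1 was at 76.1 ± 36.6 CPM in HSA-NRTN males (n = 2), 38.8 ± 18.2 in HSA-NRTN females (n = 3), 27.9 ± 17.0 in wild-type males (n = 2) and 27.2 ± 15.6 in wild-type females (n = 3). For Isl1 the interaction was 0.95 on the log2 scale (SE 0.90). With 2 males in each genotype these intervals are wide. The males of each genotype came from a different run of animal numbers, so the male means and the interaction cannot separate genotype from run.

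**Figure D4:**
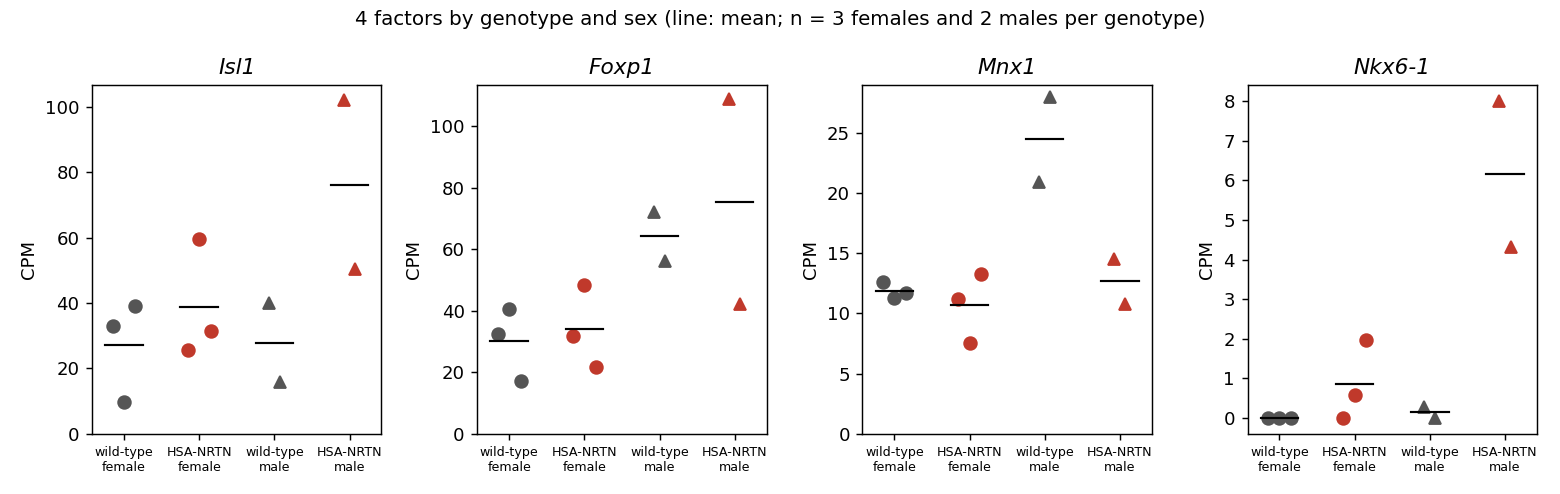
CPM of Isl1, Foxp1, Mnx1 and Nkx6-1 by genotype and sex, with 1 point per library and a line at the mean of each combination (3 females or 2 males). The 2 wild-type males are the highest for Mnx1, and the 2 HSA-NRTN males are the highest for Nkx6-1.

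Cofactors of LIM complexes all passed the low-count filter, and none was called. Of 10 genes in that list, 3 were positive and 7 negative by genotype, the median log2 fold change was -0.13, and 0 had an unadjusted p under 0.05. For this and the lists below, the share over all 11630 genes tested was 5648 positive, with 562 (4.83%) at that p. Lmo1, a LIM-only protein, had the highest wild-type level, 30.5 CPM per kb, followed by Ssbp2, a single-stranded DNA-binding partner of the complex, at 25.1, Lmo4 at 24.3 and Ssbp3 at 13.9 CPM per kb. Their genotype log2 fold changes were -0.52 (SE 0.52), 0.30 (SE 0.34), -0.14 (SE 0.63) and -0.03 (SE 0.36). Lmo3 and Lmo2, with values of -1.54 (SE 1.06) and 1.23 (SE 0.86), had the smallest p of the list. By the wild-type mean per length, these 4 cofactors stood above the 10 factors, although Lmo1 ranged widely, from 7.54 to 95.2 CPM over wild-type libraries.

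Of 17 other members of the same gene families, 13 had a count and 6 passed the low-count filter, of which 5 were positive and 1 negative, with a median of 0.40 and 0 called. Pou3f2, a POU factor related to Pou3f1, ranged from 10.8 to 89.7 CPM over HSA-NRTN libraries and from 7.08 to 17.0 CPM over wild-type ones (log2 fold change 1.48, SE 0.55), which did not pass; it was the 1 gene of this list with an unadjusted p under 0.05. Cbfb, the common partner of the runt factors, ranged from 5.18 to 129 CPM over HSA-NRTN libraries and from 9.32 to 50.9 CPM over wild-type ones. At 6.48 CPM per kb in wild-type pools it was the highest of this list, above Pou3f3 at 3.04 and Runx1t1 at 2.72 CPM per kb.

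Of 13 progenitor and early motor neuron factors, 11 had a count and 6 passed the filter, 4 positive and 2 negative (median 0.32), with 0 called. Irx3, a homeodomain factor of progenitor domains, ranged from 1.14 to 21.1 CPM over HSA-NRTN libraries and from 7.23 to 43.3 CPM over wild-type ones (log2 fold change -1.58, SE 0.68), the 1 gene of this list with an unadjusted p under 0.05. Olig1, an oligodendrocyte lineage factor, had the highest wild-type level of this list, 12.4 CPM per kb, with a log2 fold change of -0.59 (SE 0.65). The neuronal factor Myt1l was at 86.3 ± 10.2 against 69.2 ± 23.4 CPM (SD, n = 5 each).

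Of 14 column and pool readouts and Hox cofactors, all had a count and 12 passed the filter. Of those 12, 7 were positive and 5 negative (median 0.47), with 0 called. Over all genes tested, 280 were higher and 282 lower at an unadjusted p under 0.05. In this list 2 had such a p, both higher in HSA-NRTN pools. These were ephrin receptors of motor axon guidance, Epha4, which steers axons of the lateral division into the dorsal limb, and Epha3, a receptor of medial column axons. Epha4 ranged from 20.7 to 221 CPM over HSA-NRTN libraries and from 21.1 to 44.2 CPM over wild-type ones (log2 fold change 1.24, SE 0.51). Its means were 81.1 ± 80.3 and 34.1 ± 9.51 CPM (SD, n = 5 each). Epha3 ranged from 7.40 to 25.9 CPM over HSA-NRTN libraries and from 0 to 13.8 CPM over wild-type ones (1.87, SE 0.86). For Ephb1, which steers axons of the medial division, the value was -1.09 (SE 0.54). The highest of the list per length in wild-type pools was the ligand gene Efna5 at 22.9 CPM per kb, then the growth factor receptor gene Fgfr1 at 12.5 CPM per kb.

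Of 5 cholinergic genes, 4 were positive and 1 negative (median 0.38), with 0 called. The vesicular acetylcholine transporter gene Slc18a3 was at 636 ± 123 against 471 ± 73.6 CPM and the choline transporter gene Slc5a7 at 1897 ± 166 against 1458 ± 425 CPM (SD, n = 5 each), and neither passed. Acly, which makes acetyl-CoA, was at 1669 ± 367 against 2311 ± 301 CPM (log2 fold change -0.47, SE 0.20), the 1 gene of this list with an unadjusted p under 0.05. Interneuron transcription factors were near the detection limit: 0 of 19 passed the low-count filter and 16 had at least 1 count. The highest of them, Bhlhe22, was at 3.56 ± 4.72 CPM in wild-type pools and at 2.58 ± 3.44 CPM in the transgenic ones.

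Across the 10 libraries, each of the 7 fitted factors was set against 10541 genes with a conventional symbol by the Pearson correlation of log2 CPM. This is a description only, since every point shares its library's depth and cell makeup. The genes named had the highest of 10541 correlations over 10 libraries, where high values can also arise by chance. The 3 most alike genes were Itga3 (r = 0.925), Rnf8 and Pcp4l1 for Isl1, Mc4r (0.940), Ddah2 and Chml for Isl2, and Dclk1 (0.947), Zfr and Irgq for Mnx1. For Lhx4 they were Plekhg3 (0.908), Slain2 and Fndc1, for Lhx3 Megf9 (0.937), Trmt12 and Maged2, for Foxp1 Fbll1 (0.917), Cacnb3 and Slk, and for Runx1 Lemd3 (0.959), Decr2 and Ccdc82. No factor was among the 3 most alike genes of another.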

How the data were processed

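Per the submitters' processing notes, STAR 2.5.0a, HTSeq and DESeq2 were the tools and GRCm38.p6 the build; annotation release and strand setting: not given in the sources used here. In each count file, as deposited, are unnormalized counts per gene. Their 92 spike-in and 5 tally entries stayed out, the latter being 57.6% to 86.5% of reads, highest in HSA-NRTN replicate 2. A deposited table of signal, counts divided by size factors, was not used. From the authors' comparison table, log2 fold changes and adjusted p-values were printed, and its test statistic, a score that the authors deposited, was not.

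Counts were fitted in R 4.3.3 with edgeR 4.0.16 (filterByExpr, 11630 genes, TMM, quasi-likelihood F test, Benjamini-Hochberg adjustment, called under 0.05), with limma 3.58.1 and DESeq2 1.42.0 as alternatives, and tested on simulated data. Intervals are 95%. The 3 removed factors were tested by exact permutation of log2(CPM + 0.5). Replicate numbers follow record order and pair no animals. Members and lists were chosen with earlier results of these data known. Named were all 10 factors, up to 4 genes per list by smallest p and up to 4 by level, and the 3 genes most alike to each fitted factor. Outside the rule, Ptpro and Xist, the single called genes, and the overlapping gene Gm27196 were named after their values were seen. Sequences are from GENCODE M21 and RefSeq.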

Additional observations from a re-analysis of the deposited data

Results flagged for a closer look

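In 4 of 20 groups of 5 libraries, 1 per factor and genotype, the highest library stood apart by a gap above the 95% critical value of Dixon's test, 0.71 of the range. Chance flags about 1 in 20 groups of normally distributed values, a rate that does not hold for low, skewed counts such as these. Lhx1 was at 8.65 CPM and Runx1 at 18.9 CPM in HSA-NRTN replicate 2. That library had the lowest total of gene counts, 1875971, and the highest sum of oligodendrocyte markers, 1382 CPM. The part of these in the result was not tested. Pou3f1 was at 0.566 CPM and Nkx6-1 at 0.283 CPM in wild-type replicate 2, where all other wild-type libraries were at 0, so these values stand for 2 counts and 1 count and stand apart by construction.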

How the results depend on the processing

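No factor was called by genotype, by sex or by their interaction under any alternative run. The number of genes called by genotype, 1, was 81 with no filter beyond 1 count, 126 with DESeq2, 3 with limma voom, 5 with sex, 0 with the run of animal numbers and 10 with genes detected as a covariate, 0 in females only, 0 in males only, and 0 (without wild-type replicate 2) to 13 (without HSA-NRTN replicate 3) with 1 library left out. By sex it was 1, and 315 with no filter, 205 with DESeq2, 0 with limma voom and 1 to 176 (without wild-type replicate 1) with 1 library left out. Signs of the log2 fold change turned for 4 factors, none called, and the cause was not tested. For Isl2 it was -0.0047 with the run as a covariate, -0.0098 in females only, -0.10 without HSA-NRTN replicate 2 together with wild-type replicate 1, -0.10 without both HSA-NRTN replicates 1 and 2, and -0.09 to 0.26 with 1 library left out. For Lhx3 it was 0.24 in limma voom, 0.29 with genes detected as a covariate, 0.41 in females only, 0.18 without HSA-NRTN replicate 2 together with wild-type replicate 1, and -1.29 to -0.07 with 1 library left out. For Foxp1 it was -0.34 without both HSA-NRTN replicates 1 and 2, and -0.28 to 0.48 with 1 library left out. For Runx1 it was -0.16 in females only, -0.75 without HSA-NRTN replicate 2 together with wild-type replicate 1, -0.62 without both HSA-NRTN replicates 1 and 2, and -0.50 to 1.51 with 1 library left out. The signs of Isl1, Mnx1 and Lhx4 held under all alternatives run. The Nkx6-1 difference was 1.54 to 2.56 with 1 library left out (exact permutation p 0.00794 to 0.0873, above 0.05 without any 1 wild-type library) and 1.01 without both HSA-NRTN replicates 1 and 2. No paired analysis was possible because the labels number animals, not pairs. Lhx1, Pou3f1 and Nkx6-1 had 0 to 27 counts per library, which limits their precision. In males only, Lhx3 could not be fitted, and genotype cannot be told apart from the run of animal numbers.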
